A study of Mus musculus with 24 samples.

Results

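The genes described here encode integrin subunits that hold lung cells to the matrix and that release active TGF-beta from its latent store. They were chosen by name, as the symbols Itgav, Itga1, Itga5, Itga8, Itgb1, Itgb3, Itgb5, Itgb6 and Itgb8. The choice was made with earlier results of these data known. Of these 9 genes, 8 had a probe set listed under their symbol, 1 each, among 19505 genes on the array. Itga1, the alpha chain of a collagen receptor, had none and has no value here. Affymetrix arrays measured the RNA of whole lungs that were taken from mice 6 months old, and 20 arrays carried values. By group, 5 arrays were of Marfan mice given sildenafil and 5 of Marfan mice given vehicle. Another 4 were of wild-type mice given sildenafil and 6 of wild-type mice given vehicle. Sildenafil, an inhibitor of phosphodiesterase 5, was taken up with drinking water, starting when the mice were 6 weeks old. The labels call the mice Marfan or WT and give no allele, strain, sex or litter, and nothing states that all arrays came from separate animals, so each p-value measures only how these samples spread, which may be technical.

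An integrin is a pair of an alpha and a beta chain in the cell membrane, with matrix proteins bound outside and actin linked inside. Marfan syndrome is an inherited disorder of the elastic fibre network, and TGF-beta, a cytokine that drives matrix production, is stored in that network bound to latent TGF-beta binding proteins. Integrins that hold the alpha v chain can free it: alpha v beta 6 on epithelium pulls on the latent complex, and alpha v beta 8 presents it to receptors. The alpha 5 beta 1 pair is the main fibronectin receptor, and alpha 8 beta 1 binds nephronectin and other proteins with the same short recognition motif.

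The stretch of 250 bases before the gene start is shown for the alpha chain with the lowest p-value below, its beta 1 partner and the epithelial beta 6 chain. The letters come from RefSeq on the mouse assembly GRCm38.p6 and run 5′ to 3′ in the direction of the gene. Capitals mark matches, on either strand, to a SMAD box (CAGAC or GTCTG), the short motif bound by the transcription factors of TGF-beta signalling, or to a GC box (GGGCGG or CCGCCC). The positions are chr15:103366792-103367041 on the minus strand for Itga5, chr8:128685404-128685653 on the plus strand for Itgb1 and chr2:60722604-60722853 on the minus strand for Itgb6.
Itga5: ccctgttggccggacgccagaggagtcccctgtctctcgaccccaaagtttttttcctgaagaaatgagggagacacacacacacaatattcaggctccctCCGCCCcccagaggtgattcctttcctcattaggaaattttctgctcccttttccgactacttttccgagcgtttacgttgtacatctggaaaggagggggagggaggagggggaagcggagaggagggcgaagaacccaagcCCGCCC
Itgb1: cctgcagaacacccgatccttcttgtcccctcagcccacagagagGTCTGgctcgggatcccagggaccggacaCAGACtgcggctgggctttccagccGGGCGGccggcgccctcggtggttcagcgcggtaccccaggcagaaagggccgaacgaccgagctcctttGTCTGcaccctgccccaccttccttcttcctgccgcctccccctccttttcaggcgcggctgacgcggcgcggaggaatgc
Itgb6: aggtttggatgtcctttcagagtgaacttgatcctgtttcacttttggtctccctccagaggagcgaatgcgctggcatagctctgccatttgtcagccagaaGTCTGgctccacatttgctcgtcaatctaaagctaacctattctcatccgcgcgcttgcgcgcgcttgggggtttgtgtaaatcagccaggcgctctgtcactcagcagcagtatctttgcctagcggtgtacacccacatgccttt
The Itga5 stretch holds 2 GC boxes and 0 SMAD boxes, that of Itgb1 holds 3 SMAD boxes and 1 GC box, and that of Itgb6 holds 1 SMAD box and 0 GC boxes. Both motifs are common: 42.2% of 32851 mouse promoter stretches of the same length held a SMAD box and 32.7% held a GC box. None of these 3 stretches held an AP-1 site (TGANTCA, in 6.75% of all stretches) or a TATA box (TATAAA or TTTATA, in 12.4%). The matches describe the letters only. Itgb6 has 2 entries in the table: the one shown lies at the annotated gene start, and the other, at chr2:60673694-60673943, holds 0 SMAD boxes and 0 GC boxes. Of the 9 genes, 8 had an entry in the promoter table.

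Signal is given in log2 units after quantile normalization over the 20 arrays, so a difference of 1 is a factor of 2 in signal, and each probe set is compared with itself only. On the deposited scale the array medians were 5.73 to 6.45 in the Marfan sildenafil, 5.80 to 6.13 in the Marfan vehicle, 5.87 to 6.19 in the wild-type sildenafil and 5.32 to 5.83 in the wild-type vehicle group (log2 units), so the wild-type vehicle arrays were on average the dimmest. The lung markers Sftpc (13.01 to 13.21), Ager (11.54 to 12.37) and Cdh5 (10.05 to 11.64), of alveolar type 2, alveolar type 1 and endothelial cells, were high on every array. Marfan sildenafil array 9 stood apart on the leading principal component (18.3% of the variance), and its alternatively activated macrophage genes averaged 11.12, against at most 7.96 on any other array. For the integrin genes, most results that rest on this array are given with and without it. The values of other gene lists in Marfan sildenafil lungs all include it. Array numbers run on over the groups. Above the background median of its own array, the lowest reading was 7.34 log2 units for Itgb1, 5.83 for Itgav, 5.61 for Itgb6, 4.83 for Itga8, 4.52 for Itgb5, 3.33 for Itgb3 and 2.61 for Itga5. For Itgb8 it was 1.70, and Itgb8 was the only one of the 8 genes in the dimmer 50% of all genes.

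Itga5, the alpha chain of the fibronectin receptor, had the lowest p-value of the 8 genes. It read 7.04, 7.32, 6.48, 6.56 and 6.60 log2 units on Marfan sildenafil arrays 8 to 12 and 6.88, 6.62, 6.84, 6.59 and 6.33 on Marfan vehicle arrays 20 to 24. It read 6.56, 6.42, 6.54 and 6.65 on wild-type sildenafil arrays 1, 4, 5 and 6, while the wild-type vehicle arrays had a lowest value of 5.61, a median of 5.91 and a highest of 6.67. The wild-type vehicle group was thus the low one, and 4 of its 6 arrays lay below each of the 14 others, but its arrays 17 (6.34) and 18 (6.67) overlapped with the other groups. The group means ran in the order Marfan sildenafil 6.80 ± 0.36 (SD, n = 5), Marfan vehicle 6.65 ± 0.22 (n = 5), wild-type sildenafil 6.54 ± 0.09 (n = 4) and wild-type vehicle 6.04 ± 0.40 (n = 6). Neighbours among the first 3 differed by less than the larger of their SDs.

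In Marfan vehicle versus wild-type vehicle lungs Itga5 lay 0.62 ± 0.17 log2 units higher (SE; 95% interval 0.26 to 0.98), a factor of 1.54 in signal (1.20 to 1.97). In wild-type sildenafil against wild-type vehicle lungs it lay 0.50 ± 0.19 higher (0.12 to 0.89), a factor of 1.42 (1.09 to 1.85). These comparisons share the 6 wild-type vehicle arrays. The unadjusted p was 0.00166 and 0.0123, and neither passed limma's test after Benjamini-Hochberg adjustment over all genes, with an adjusted p = 0.726 and an adjusted p = 0.440. The adjusted p was 0.0328 for the first with the deposited values, where the median gene lay 0.25 higher and Itga5 0.99 ± 0.18 higher. With the deposited array median as a covariate the difference was 0.97 ± 0.19 (adjusted p = 0.400). That median was itself lowest on average in the wild-type vehicle group, and the part of array brightness in the Itga5 value was not settled by this fit.

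Among lungs that had received sildenafil, Itga5 was 0.26 ± 0.19 higher in Marfan than in wild-type mice (-0.14 to 0.66), and 0.13 without array 9. Within Marfan mice it was 0.15 ± 0.18 higher under sildenafil than under vehicle (-0.23 to 0.52), and 0.02 without array 9. The sildenafil effect in Marfan minus that in wild-type mice was -0.36 ± 0.26 (-0.90 to 0.18, adjusted p = 0.984 by limma). Without array 9 it was -0.49 ± 0.24 (adjusted p = 0.995 by limma). A different response of the genotypes was thus not detected. The test over all 4 groups gave an unadjusted p = 0.00105 and an adjusted p = 0.222 for Itga5, where 8.78% of all genes had an unadjusted p under 0.05, and 0% had an adjusted one under it. That adjusted p was 0.00249 with the deposited values and 0.0479 with array weights. In bulk lung, fewer cells of a type and less RNA per cell cannot be told apart for any of these genes.

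Itgb1, which pairs with alpha 5, alpha 8, alpha v and several other alpha chains, varied little. It read 10.87, 10.47, 10.86, 10.87 and 10.93 log2 units on Marfan sildenafil arrays 8 to 12 and 11.16, 10.61, 10.65, 10.86 and 10.87 on Marfan vehicle arrays 20 to 24. It read 10.75, 10.84, 10.88 and 11.00 on the wild-type sildenafil arrays, and the wild-type vehicle arrays ran from 10.50 through a median of 10.79 to 10.84. The ranges of all groups overlapped. The 4 direct differences between groups ran from -0.07 ± 0.11 in Marfan sildenafil against wild-type sildenafil to 0.14 ± 0.11 in wild-type sildenafil against wild-type vehicle lungs, and the first of these was 0.01 without array 9. For Marfan vehicle versus wild-type vehicle lungs the 95% interval was -0.10 to 0.31.

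Itga8, the alpha chain found on lung fibroblasts and smooth muscle, was even between groups but for 1 array. It read 9.43, 7.64, 9.51, 9.58 and 9.23 log2 units on Marfan sildenafil arrays 8 to 12 and 9.76, 9.30, 9.51, 9.41 and 9.38 on Marfan vehicle arrays 20 to 24. It read 9.17, 9.59, 9.70 and 9.55 on the wild-type sildenafil arrays, and 9.17 (lowest), 9.29 (median) and 9.68 (highest) on the wild-type vehicle arrays. Array 9 alone lay low, 1.77 log2 units under the median of the others, which ran from -0.24 to 0.37 around it. With this array Itga8 stood at -0.39 ± 0.23 in Marfan sildenafil against Marfan vehicle and at -0.42 ± 0.25 in Marfan sildenafil against wild-type sildenafil lungs. Without it the differences were -0.03 ± 0.12 and -0.06 ± 0.12. On the same array the smooth muscle and pericyte genes averaged 7.29, the fibroblast genes 8.03 and the endothelial genes 9.02, each the lowest of the 20. The same held for alveolar type 1 (9.89), ciliated (7.23), cardiac muscle (5.71), platelet (7.15) and B cell genes (8.29), so that 8 of 16 marker lists were lowest and 2, both of macrophages, highest on this array. The smooth muscle average (10 genes measured) ran from 7.29 to 8.38 in Marfan sildenafil, 7.72 to 8.16 in Marfan vehicle, 7.84 to 8.12 in wild-type sildenafil and 7.54 to 7.99 in wild-type vehicle lungs. The fibroblast average (9 genes measured) ran from 8.03 to 8.70, 8.34 to 8.55, 8.34 to 8.55 and 8.21 to 8.53 in the same groups. The part of these cell types in the Itga8 value was not tested.

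Array 9 was not low for every subunit. Relative to the median of the others it lay 0.88 higher for Itgb8, 0.76 for Itga5, 0.41 for Itgav, 0.35 for Itgb3, 0.23 for Itgb6 and 0.18 for Itgb5, and at -0.37 for Itgb1. Of the 8 genes, Itga8, Itgav, Itgb1, Itgb8 and Itga5 had on this array the most extreme value of all 20 in its direction.

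**Figure D1:**
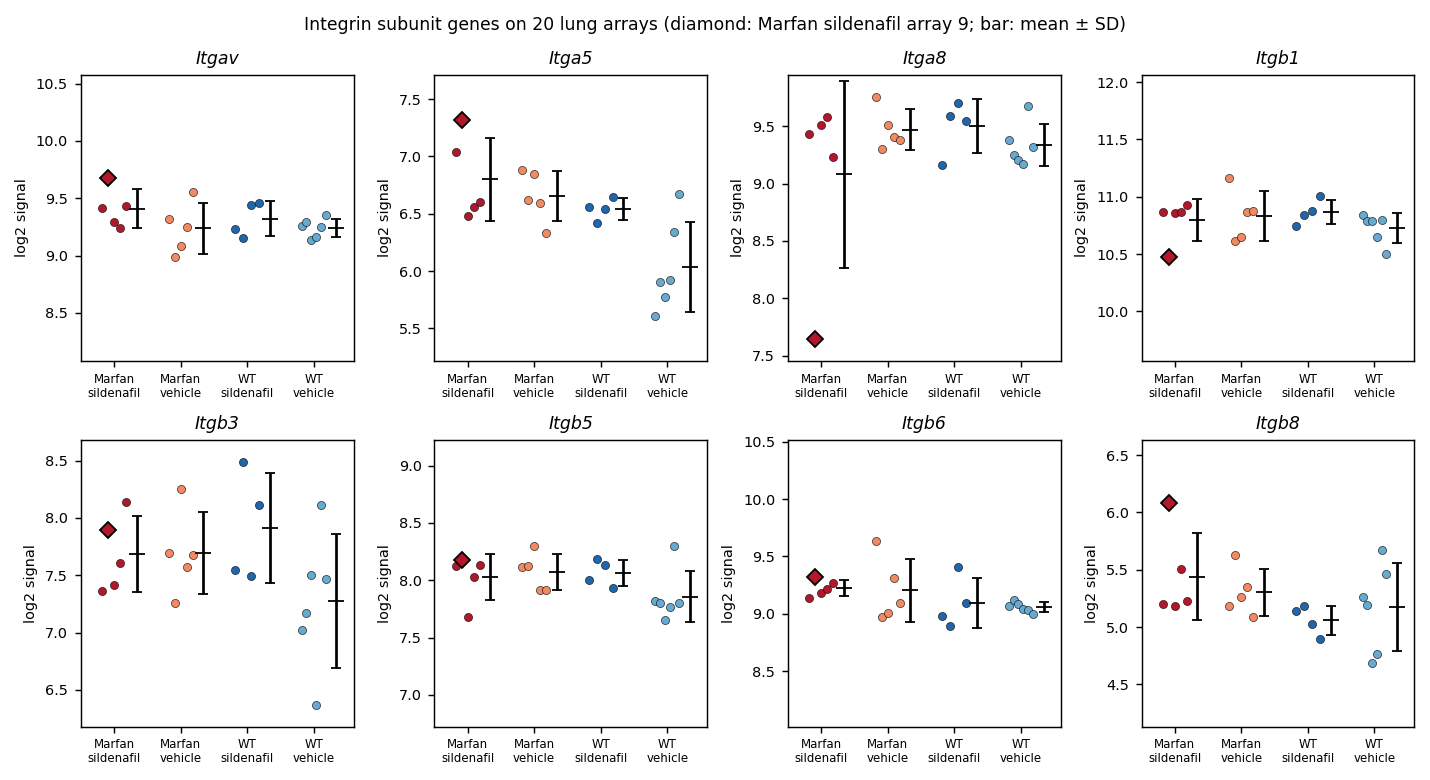
Log2 signal (y axis, quantile-normalized) of 8 integrin subunit genes on 20 lung arrays, by group on the x axis. Each point is 1 array, the diamond is Marfan sildenafil array 9, and the bars give the group mean and SD. Itga5 is lowest in the wild-type vehicle group (mean 6.04), and array 9 lies at 7.64 for Itga8.

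Itgav, the alpha v chain that every TGF-beta activating integrin here needs, was among the steadiest. Its values ran from 9.24 to 9.67 log2 units on Marfan sildenafil, 8.98 to 9.55 on Marfan vehicle, 9.15 to 9.46 on wild-type sildenafil and 9.14 to 9.35 on wild-type vehicle arrays, so all groups overlapped. Its difference was -0.0042 ± 0.10 in Marfan vehicle versus wild-type vehicle (95% interval -0.21 to 0.20) and 0.09 ± 0.11 in Marfan sildenafil against wild-type sildenafil lungs. It was 0.17 ± 0.10 in Marfan sildenafil against Marfan vehicle and 0.08 ± 0.11 in wild-type sildenafil against wild-type vehicle lungs. Without array 9 it was 0.11 in Marfan sildenafil against Marfan vehicle and 0.02 in Marfan sildenafil against wild-type sildenafil lungs. The residual SD within groups was 0.16, against a median of 0.26 over all genes.

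Itgb3, whose product forms the vitronectin receptor with alpha v and the fibrinogen receptor of platelets with alpha IIb, was the most variable of the 8, with a residual SD of 0.46. It read 7.36, 7.90, 7.41, 7.60 and 8.14 log2 units on Marfan sildenafil arrays 8 to 12 and 7.70, 7.26, 8.25, 7.57 and 7.68 on Marfan vehicle arrays 20 to 24. It read 7.55, 8.49, 7.49 and 8.11 on wild-type sildenafil arrays 1, 4, 5 and 6, and the wild-type vehicle arrays had a lowest value of 6.37, a median of 7.32 and a highest of 8.12. The wild-type sildenafil group had the highest mean (7.91), but its arrays 1 and 5 read below the medians of both Marfan groups (7.60 and 7.68). Each pair of groups overlapped. In wild-type mice Itgb3 was 0.63 ± 0.25 higher under sildenafil than under vehicle (95% interval 0.12 to 1.15), with an unadjusted p = 0.0180 and an adjusted p = 0.474 by limma, so it did not pass. Without wild-type sildenafil array 4 the difference was 0.44, and without wild-type vehicle array 17 it was 0.80. It was 0.42 ± 0.23 in Marfan vehicle versus wild-type vehicle lungs, 0.24 without wild-type vehicle array 16 and 0.58 without array 17. In Marfan mice the sildenafil difference was -0.01 ± 0.25 (-0.06 without array 9). The effect in Marfan minus that in wild-type mice was -0.64 ± 0.35 (-1.37 to 0.08, adjusted p = 0.984 by limma). Without array 9 it was -0.70 ± 0.35 (adjusted p = 0.995 by limma), so the genotypes were not shown to differ.

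On average the platelet genes were highest in the same group as Itgb3. Of the 5 listed markers 4 were measured, and their mean was 8.28 ± 0.88 (SD, n = 5) in Marfan sildenafil, 8.42 ± 0.87 (n = 5) in Marfan vehicle, 9.01 ± 0.46 (n = 4) in wild-type sildenafil and 8.31 ± 0.51 (n = 6) in wild-type vehicle lungs. In wild-type sildenafil against wild-type vehicle lungs all 4 were higher, by a median of 0.74 log2 units, and 0 passed limma's test. Their ranges were 7.15 to 9.18, 7.55 to 9.82, 8.50 to 9.41 and 7.78 to 9.12 in the 4 groups in the order above, after quantile normalization. The background probe sets, read on the deposited scale, had far lower array medians of 2.56 to 3.28. The lowest average, 7.15, was that of array 9, and the highest, 9.82, was on a Marfan vehicle array. Endothelial (10.08), alveolar type 1 (10.61) and T and NK cell genes (7.27) also had their highest mean in wild-type sildenafil lungs. The part of the platelet genes in the Itgb3 value was not tested.

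Itgb5, a further alpha v partner that binds vitronectin, ran from 7.68 to 8.18 on Marfan sildenafil, 7.91 to 8.29 on Marfan vehicle, 7.93 to 8.18 on wild-type sildenafil and 7.65 to 8.30 log2 units on wild-type vehicle arrays. Apart from array 17 at 8.30 the wild-type vehicle arrays reached only 7.82, and 13 of the 14 other arrays lay above the wild-type vehicle median of 7.80. The difference was 0.22 ± 0.11 in Marfan vehicle versus wild-type vehicle (-0.02 to 0.45) and 0.20 ± 0.12 in wild-type sildenafil against wild-type vehicle lungs (-0.05 to 0.46), with adjusted p = 0.794 and adjusted p = 0.640 by limma. Without wild-type vehicle array 17 these differences were 0.30 and 0.29.

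Itgb6, the epithelial chain that activates TGF-beta, read 9.14, 9.32, 9.18, 9.22 and 9.27 log2 units on Marfan sildenafil arrays 8 to 12 and 9.64, 8.97, 9.00, 9.32 and 9.09 on Marfan vehicle arrays 20 to 24. It read 8.98, 8.90, 9.40 and 9.09 on the wild-type sildenafil arrays, and 9.00 (lowest), 9.06 (median) and 9.12 (highest) on the wild-type vehicle arrays. The Marfan sildenafil arrays read 9.14 or more and the wild-type vehicle arrays 9.12 or less. These groups differ in both genotype and drug and were not compared directly. The share of all genes with such a gap was not counted, so nothing is concluded from it. On the deposited scale the closest arrays, Marfan sildenafil 10 and wild-type vehicle 14, both read 9.17. The 4 direct differences ran from 0.02 ± 0.11 in Marfan sildenafil against Marfan vehicle (-0.0030 without array 9) to 0.15 ± 0.11 in Marfan vehicle versus wild-type vehicle lungs. Averaged over treatments, Marfan lungs lay 0.14 ± 0.08 above wild-type lungs (95% interval -0.02 to 0.30, adjusted p = 0.918 by limma), so a difference of more than 0.30 log2 units lies outside the interval.

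Itgb8, the chain that presents latent TGF-beta, was the dimmest. It read 5.20, 6.08, 5.18, 5.50 and 5.23 log2 units on Marfan sildenafil arrays 8 to 12 and 5.18, 5.63, 5.26, 5.35 and 5.09 on Marfan vehicle arrays 20 to 24. It read 5.14, 5.18, 5.03 and 4.89 on the wild-type sildenafil arrays, and 4.69 (lowest), 5.23 (median) and 5.67 (highest) on the wild-type vehicle arrays. On the deposited scale the sildenafil groups overlapped, with Marfan array 10 at 5.14 and wild-type array 1 at 5.38. After quantile normalization the Marfan sildenafil arrays all lay above the wild-type sildenafil ones, by 0.0028 at the narrowest point. The groups did not overlap there for 1 of the 8 genes, against 1.43% of all genes. The difference was 0.38 ± 0.21 (-0.05 to 0.80, adjusted p = 1.00 by limma), and 0.22 without array 9.

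**Figure D2:**
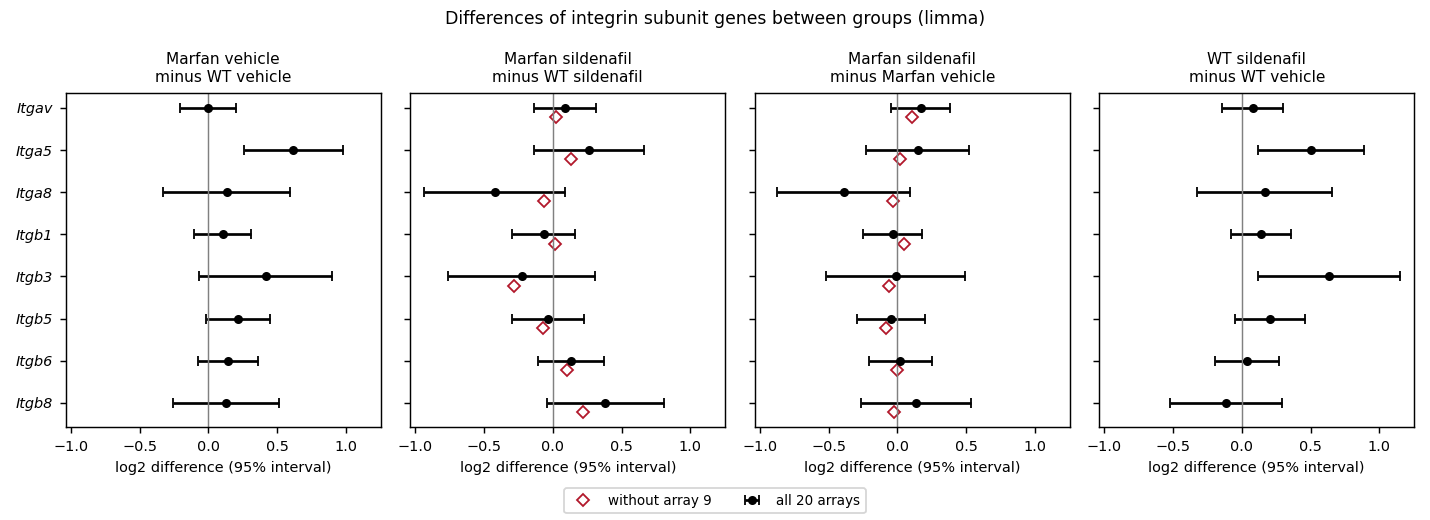
Log2 difference (x axis, first group minus second) of 8 integrin subunit genes in 4 comparisons, from limma on all 20 arrays. Black points are estimates with 95% intervals, and open diamonds are the estimates without Marfan sildenafil array 9, shown where that group enters. The intervals of Itga5 exclude 0 against wild-type vehicle lungs in both comparisons, and the Itga8 estimates of -0.39 and -0.42 move to -0.03 and -0.06.

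Over the 8 genes, 0 passed in any of the 7 comparisons, as did 0% of all genes in each by limma at an adjusted p under 0.05. At an unadjusted p under 0.05 the count was 1 of 8 (Itga5) in Marfan vehicle versus wild-type vehicle lungs, against 6.26% of all genes, and 0 of 8 in Marfan sildenafil against wild-type sildenafil lungs, against 3.89%. It was 0 of 8 in Marfan sildenafil against Marfan vehicle lungs, against 6.71%, and 2 of 8 (Itga5 and Itgb3) in wild-type sildenafil against wild-type vehicle lungs, against 9.1%. For the difference between the sildenafil effects it was 0 of 8 against 4.47%, for the averaged Marfan effect 1 of 8 (Itga5) against 5.35%, and for the averaged sildenafil effect 1 of 8 (Itga5) against 10.9%. These are counts of 1 or 2 genes, none of which passed after adjustment. Groups that did not overlap were found for 0 of 8 genes in Marfan vehicle versus wild-type vehicle lungs (0.528% of all genes), 0 of 8 in Marfan sildenafil against Marfan vehicle lungs (0.877%), 0 of 8 in wild-type sildenafil against wild-type vehicle lungs (2.72%) and, as given for Itgb8, 1 of 8 in Marfan sildenafil against wild-type sildenafil lungs (1.43%).

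In the direct comparisons with wild-type vehicle lungs most estimates lay above 0. In Marfan vehicle versus wild-type vehicle lungs 7 of 8 were above 0 with a median of 0.14 log2 units, where the median gene stood at -0.0048. In wild-type sildenafil against wild-type vehicle lungs 7 of 8 were above 0 with a median of 0.15, where the median gene stood at -0.0018. In Marfan sildenafil against Marfan vehicle and against wild-type sildenafil lungs 4 of 8 were above 0, with medians of 0.0057 and 0.03. Without array 9 these were 3 of 8 with a median of -0.01 and 5 of 8 with a median of 0.02. The deposited values moved the median gene to 0.25 and 0.28 in the comparisons with wild-type vehicle lungs, and centring on array medians moved it to -0.13 and -0.12. With the centred values Itgb1 turned to -0.05 in the first, and Itgav, Itgb1 and Itgb6 to -0.01, -0.02 and -0.05 in the second, each of them still above the median gene.

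Whether the chains of a receptor varied together from lung to lung was asked with values centred on their group means, which leaves the group differences out. Of the pairs known to form receptors, 7 could be tested over the 20 arrays. Itgb1 and Itga8 had r = 0.66 and rho = 0.62, with a permutation p = 0.00784 and a permutation p = 0.0109, and after adjustment over the 7 pairs 0.0549 and 0.0766. The relation leaned on array 9, low for both chains: r was 0.47 without it (permutation p = 0.0686) and 0.52 without arrays 9 and 18, the farthest from the median of Itgb1. Itgav and Itgb6 had r = 0.44 and rho = 0.49 (permutation p = 0.170 and 0.0796, adjusted 0.396 and 0.279), and r = 0.33 without arrays 9 and 21. With deposited values centred on array medians r was 0.47 for the first and 0.66 for the second pair, both with an adjusted permutation p = 0.0241. The alpha v chain showed r = 0.09 with Itgb1, 0.09 with Itgb3, -0.02 with Itgb5 and 0.12 with Itgb8, with an adjusted permutation p of 0.895, 0.895, 0.927 and 0.895. Their rho was 0.16, 0.12, -0.05 and -0.0075 in that order, with an adjusted permutation p of 0.907, 0.907, 0.977 and 0.977. Without arrays 9 and 21 their r was 0.25, -0.06, -0.09 and 0.02. The value for Itgav and Itgb1 rested on array 9, without which r was 0.46 and rho 0.47 (adjusted permutation p = 0.544 and 0.338), and with deposited values centred on array medians r was 0.44 (adjusted permutation p = 0.0843). Itgav and Itgb8 had r = -0.20 without array 9 (adjusted permutation p = 0.544). Itgav had r = 0.04 with Itgb3 and r = -0.14 with Itgb5 without that array. Itgb1 and Itga5 had r = -0.42 and rho = -0.30 (adjusted permutation p = 0.268 and 0.525), and r = -0.0037 without arrays 9 and 18. Pairs of beta chains, which lack an alpha chain, were read on the same centred values. Over the 20 arrays their r ran from -0.51 (Itgb1 and Itgb8) to 0.58 (Itgb5 and Itgb8), below the 0.66 of Itgb1 and Itga8. Without array 9 their r ran from -0.29 (Itgb1 and Itgb8) to 0.72 (Itgb1 and Itgb6), above the 0.47 of Itgb1 and Itga8. Whether the chains of a receptor ran closer than other chains was not tested.

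The platelet pair of Itgb3 with Itga2b, which was chosen after its values were seen and is not one of the 7, had r = 0.55 and rho = 0.68 over the 20 arrays. Having been chosen for its values, the pair is a description with no test. Leaving out array 9 gave r = 0.69, and leaving out arrays 4 and 16, the farthest from the Itgb3 median, gave r = 0.56. Itga2b averaged 6.75 in Marfan sildenafil, 6.90 in Marfan vehicle, 7.07 in wild-type sildenafil and 6.69 log2 units in wild-type vehicle lungs.

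**Figure D3:**
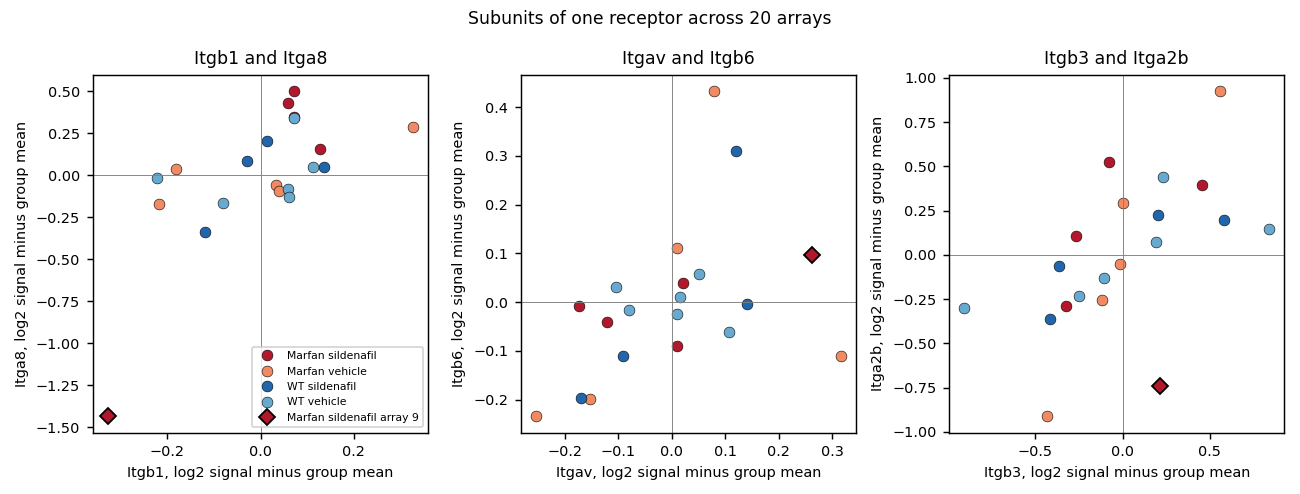
Values of the beta 1 and alpha 8, alpha v and beta 6, and beta 3 and alpha IIb genes on 20 arrays, each as log2 signal minus its group mean, with the first gene on the x axis. Points are arrays coloured by group and the diamond is Marfan sildenafil array 9, which lies low for both genes of the first panel. Pearson's r is 0.66, 0.44 and 0.55 from left to right.

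The genes whose centred values ran most like each subunit were looked up among 9554 brighter genes with a name. Over the 19 arrays without array 9, Itgb1 ran closest with Bmpr2, a receptor of bone morphogenetic proteins, at r = 0.93, and Col4a3, a basement membrane collagen chain, at r = 0.92. With array 9 these were 0.91 and 0.94, so the likeness of Itgb1 did not rest on that array. Itga8 ran closest with Lamb1, a laminin chain, at r = 0.89, and Clk2 at 0.81, which were 0.59 and 0.69 with array 9. The closest to Itgav were Cpeb4 and Ylpm1 (0.79 each), to Itga5 Ccdc9 and Golt1b (0.81 each) and to Itgb3 Zfp740 (0.81) and Ninl (0.79). The closest to Itgb5 were C2cd2l and Fxr2 (0.83 each), to Itgb6 Btrc and Arl15 (0.84 each) and to Itgb8 Srp72 (0.79) and Zscan21 (0.74). With array 9 included, r fell to 0.31 for Itgb6 with Arl15, 0.54 for Itgb6 with Btrc and 0.28 for Itgb8 with Zscan21, and the other named pairs of Itgav, Itga5, Itgb3, Itgb5 and Itgb8 ran from 0.56 to 0.85. These values were picked as the highest of many and share their arrays, so they describe these libraries only.

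The remaining integrin subunits, 16 of 17 measured, gave a similar lean against wild-type vehicle lungs. Both of these comparisons share the 6 wild-type vehicle arrays. This list and those below were read on the quantile-normalized scale only. All were chosen with earlier results of these data known, so their counts are no independent support. In Marfan vehicle versus wild-type vehicle lungs 13 of 16 were above 0 with a median of 0.21 log2 units, led by Itga3 of the laminin receptor (0.40 ± 0.13), Itgad of leukocytes (0.53 ± 0.17) and Itga7 of muscle (0.59 ± 0.21). In wild-type sildenafil against wild-type vehicle lungs 15 of 16 were above 0, also with a median of 0.21, led by Itgal of lymphocytes (0.46 ± 0.14), Itga2 of the collagen receptor (0.37 ± 0.11) and Itga3 (0.44 ± 0.14). In both of the other comparisons 8 of 16 were above 0, with medians of 0.0049 in Marfan sildenafil against Marfan vehicle and 0.01 in Marfan sildenafil against wild-type sildenafil lungs. None of the 16 passed limma's test over all genes, and 5, 4, 0 and 1 of them had an unadjusted p under 0.05 in the 4 comparisons in the order given, against 6.26%, 9.1%, 6.71% and 3.89% of all genes.

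The latent TGF-beta genes encode TGF-beta ligands and proteins that bind them in latent form. They were 8 of 8 above 0 in both comparisons with wild-type vehicle lungs, which share the same reference arrays. The median was 0.26 in Marfan vehicle lungs, with Ltbp3, a latent TGF-beta binding protein gene, at 0.45 ± 0.15, and 0.45 in wild-type sildenafil lungs, with Tgfb2, a TGF-beta ligand gene, at 0.57 ± 0.17. None of the 8 passed limma's test over all genes, while 4 and 6 of them had an unadjusted p under 0.05, against 6.26% and 9.1% of all genes. The list was chosen with results of these arrays known, so the counts are no independent support. In Marfan sildenafil against wild-type sildenafil lungs 3 of 8 were above 0 (median -0.03). TGF-beta target genes were 7 of 11 above 0 in Marfan vehicle versus wild-type vehicle lungs with a median of 0.07. In Marfan sildenafil against wild-type sildenafil lungs 8 of 11 were above 0 (median 0.21). The count was also 8 of 11 in Marfan sildenafil against Marfan vehicle (median 0.10) and wild-type sildenafil against wild-type vehicle lungs (median 0.11). In these 4 comparisons 0 of the 11 had an unadjusted p under 0.05, against 6.26%, 3.89%, 6.71% and 9.1% of all genes.

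Ligands of these receptors were 17 of 23 above 0 in Marfan vehicle versus wild-type vehicle lungs (median 0.16), with the fibronectin gene Fn1 at 0.62 ± 0.21 and Lamb1 at 0.47 ± 0.17. In Marfan sildenafil against wild-type sildenafil lungs 14 of 23 were above 0 (median 0.14), with tenascin C (Tnc) at 1.13 ± 0.29 and Mfge8, an alpha v ligand on membranes, at 0.54 ± 0.21. In Marfan sildenafil against Marfan vehicle lungs 15 of 23 were (median 0.11), with Mfge8 at 0.62 ± 0.20. In wild-type sildenafil against wild-type vehicle lungs 19 of 23 were (median 0.12), with thrombospondin 1 (Thbs1) at 0.90 ± 0.30. None of them passed limma's test over all genes. An unadjusted p under 0.05 was seen for 6, 7, 5 and 3 of 23 in the 4 comparisons in that order. The shares of all genes were 6.26%, 3.89%, 6.71% and 9.1%.

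Genes of adhesion adaptors and other proteins that act with integrins were 27 of 30 above 0 in wild-type sildenafil against wild-type vehicle lungs. Their median was 0.20. Among them the talin-binding protein gene Kank2 stood at 0.46 ± 0.14, zyxin (Zyx) at 0.46 ± 0.15 and the docking protein gene Bcar1 at 0.38 ± 0.13. In Marfan vehicle versus wild-type vehicle lungs 21 of 30 were above 0 (median 0.11), with alpha-actinin 1 (Actn1) at 0.44 ± 0.12. Under sildenafil 6 of 30 were above 0 in Marfan against wild-type lungs (median -0.10). None passed limma's test over all genes, and 9 and 1 of 30 had an unadjusted p under 0.05 in the first and second of these comparisons, against 9.1% and 6.26% of all genes.

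**Figure D4:**
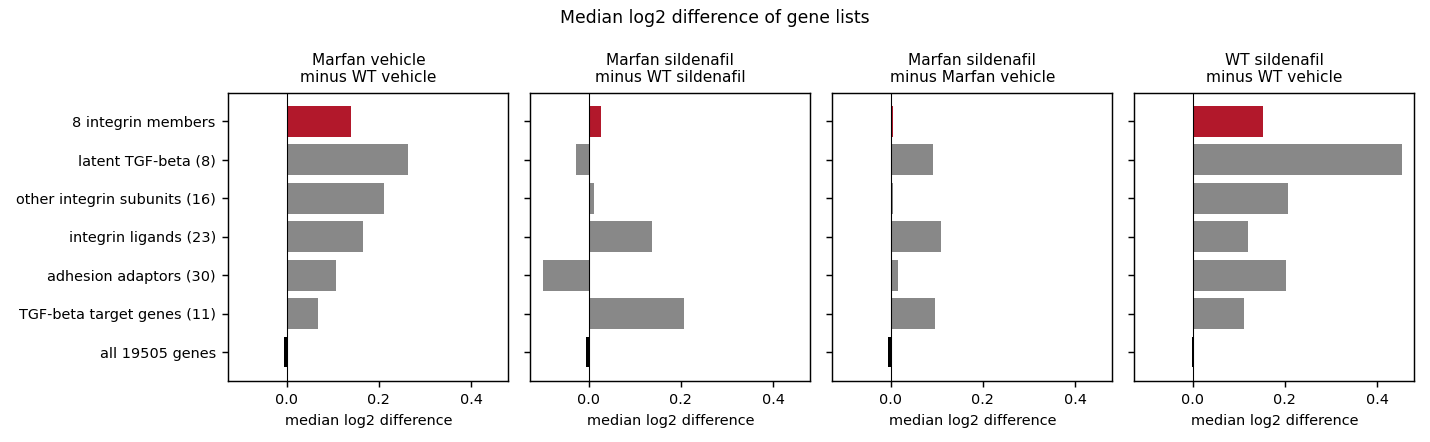
Median log2 difference (x axis, first group minus second) of the 8 integrin genes (red), 5 lists of related genes with the number measured in brackets (grey) and all 19505 genes (black) in 4 comparisons. Bars start at 0 and carry no error. Against wild-type vehicle lungs the medians of all lists lie above 0, with 0.14 and 0.15 for the integrin genes.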

How the data were processed

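RNA of whole mouse lung was measured on Affymetrix arrays. Per the submitters' processing notes the authors used Affymetrix Expression Console and RMA, which corrects background and summarises probes, without a version in those notes. Deposited values were log2 signal per probe set, 1 column per sample. The design gives an n of 6 per group, and 4 arrays that the titles mark as failing quality control had empty columns. Samples were grouped by title. The deposited array medians differed, so the 22206 transcript probe sets were quantile-normalized over the 20 arrays, as an added step. Of these, 19572 had 1 gene symbol in the platform annotation, 0 had several and 2634 had none. The brightest probe set stood for each of 19505 genes. limma 3.58.1 in R 4.3.3 fitted the 4 groups together (variance trend, Benjamini-Hochberg adjustment over all genes, threshold 0.05) and gave 7 comparisons and a test over all groups. Receptor pairs were tested by 100000 permutations within groups, two-sided. Python 3.11.15 handled sequences. The fit was tested on simulated data.

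Array data have no read depth, and precision is limited by how many arrays there are. Genes named are the 9 integrins, the up to 3 members of each further list with the smallest p in a comparison, and the 2 genes most like each integrin. The members and lists were chosen with earlier results of these data known. The cell marker genes were listed by name. The gene mutated in Marfan syndrome is not reported here. Alternatives were the deposited values, centring, covariates, array weights, other filters and leaving out each array.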

Additional observations from a re-analysis of the deposited data

Results flagged for a closer look

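For 3 of 32 combinations of gene and group, 1 array lay far from the rest of its group by Dixon's test at the 95% level, which chance does in about 1 in 20 groups. Marfan sildenafil array 9 read 7.64 log2 units for Itga8, where the other 4 arrays of its group read 9.23 to 9.58. The same array read 10.47 for Itgb1, where the other 4 read 10.86 to 10.93. Wild-type vehicle array 17 read 8.30 for Itgb5, where the other 5 read 7.65 to 7.82.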

How the results depend on the processing

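Over all alternatives, 71 values of a difference of the 8 integrin genes changed sign and 1 newly passed, and the cause of these changes was not tested. The one that passed was Itga5 in Marfan vehicle versus wild-type vehicle lungs with the deposited values (0.99, adjusted p = 0.0328 by limma), so 1 integrin was called there and 1 (Itga5) in the test over all groups. These values called 5 genes in that comparison, 2 for the averaged Marfan effect, 3 for the averaged sildenafil effect and 218 over all groups. They turned Itgav in Marfan vehicle versus wild-type vehicle to 0.25, Itgb1, Itgb3 and Itgb5 in Marfan sildenafil against Marfan vehicle to 0.028, 0.046 and 0.016, and Itgb8 in wild-type sildenafil against wild-type vehicle to 0.27. The difference between sildenafil effects became -0.12 for Itgav and -0.11 for Itgb8, and the averaged sildenafil effect 0.077 for Itga8.

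Deposited values centred on array medians turned Itgb1 in Marfan vehicle versus wild-type vehicle to -0.053, Itgb3 in Marfan sildenafil against Marfan vehicle to 0.017, and Itgav, Itgb1 and Itgb6 in wild-type sildenafil against wild-type vehicle to -0.012, -0.021 and -0.045. The difference between sildenafil effects became 0.019 for Itgb1 and 0.13 for Itgb6, the averaged Marfan effect -0.0054 for Itgav and -0.044 for Itgb1, and the averaged sildenafil effect -0.011 for Itgb1 and -0.00086 for Itgb8. The correlation of Itgav and Itgb5 became 0.46, and 2 of the 7 pairs passed. With the array median as covariate Itgav and Itga8 became 0.13 and -0.13 in Marfan vehicle versus wild-type vehicle, Itgb3 0.0083 in Marfan sildenafil against Marfan vehicle, and Itga8 and Itgb8 -0.11 and 0.095 in wild-type sildenafil against wild-type vehicle. The difference between sildenafil effects became -0.041 for Itgav, and the averaged Marfan effect -0.018 for Itgb1. The mean of 3 Y-linked genes as covariate turned the difference between sildenafil effects of Itgb6 to 0.00057.

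Array weights called 1 gene in Marfan vehicle versus wild-type vehicle lungs, 5 for the averaged Marfan effect, 68 for the averaged sildenafil effect and 33 over all groups, with 1 integrin (Itga5) among the last. They turned Itgav in Marfan vehicle versus wild-type vehicle to 0.037, Itgb1 in Marfan sildenafil against Marfan vehicle to 0.021, the difference between sildenafil effects of Itgav to -0.0071 and the averaged sildenafil effect of Itga8 to 0.053 and of Itgb8 to -0.016. Leaving out the dimmer 50% of genes, fewer tests, called 10 genes for the averaged sildenafil effect. Without the 2 arrays farthest from the Itgav median its correlation with Itgb3 was -0.061. Fits with no variance trend, with the mean of a gene's probe sets, with only the groups compared or without the dimmer genes leave an integrin's difference as it is by construction, and 0 integrins passed in them.

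Leaving out 1 array at a time, genes called ran from 0 to 2 for Marfan vehicle versus wild-type vehicle lungs (2 without array 9, 1 without array 17), from 0 to 2 for the averaged Marfan effect (2 without array 17), from 0 to 74 for the averaged sildenafil effect (74 without array 9, 25 without array 10, 1 without array 24) and from 0 to 1 over all groups (1 without array 17). The averaged Marfan effect ran from -0.21 to 0.036 for Itga8 and from -0.022 to 0.060 for Itgb1, and the averaged sildenafil effect from -0.18 to 0.067 for Itga8, -0.023 to 0.083 for Itgb6 and -0.069 to 0.060 for Itgb8. In Marfan vehicle versus wild-type vehicle Itgav ran from -0.083 to 0.059, and in wild-type sildenafil against wild-type vehicle Itgb6 from -0.068 to 0.10. In Marfan sildenafil against Marfan vehicle Itgb1 ran from -0.088 to 0.048, Itgb3 from -0.12 to 0.13, Itgb5 from -0.084 to 0.043, Itgb6 from -0.037 to 0.13 and Itgb8 from -0.024 to 0.22. In Marfan sildenafil against wild-type sildenafil Itgb1 ran from -0.11 to 0.014 and Itgb5 from -0.076 to 0.054, and the difference between sildenafil effects of Itgb6 from -0.080 to 0.094. The correlation of Itgav and Itgb8 was -0.20 without array 9. No paired analysis was possible because the array numbers run on over the groups and the labels pair no samples. Signal over background limits Itgb8 most, at 1.70 log2 units or more.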
